A study of Mus musculus with 6 samples.

Results

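Chromatin accessibility at 10 genes of contractile cells and pericytes was followed in skeletal stem and progenitor cells (SSPCs) of young and middle-aged mice. The genes were Srf and Myocd, which encode the transcription factor and the cofactor of the contractile programme, Acta2, Tagln, Myh11, Cnn1 and Des, which encode contractile and cytoskeletal proteins, and Mcam, Rgs5 and Cspg4, which mark pericytes. They were chosen by name, 10 of 21853 protein-coding genes, by a rule that uses no measured value. Every called peak within 1000 bp of a protein-coding transcription start site (TSS), in the gene body or in the 20 kb upstream was collected for each gene, which gave 29 regions among the 63840 regions of the 6 peak lists. A TSS peak here is a peak that touches the 1000 bp before or after any start site of the gene.

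SSPCs came from tibial and femoral marrow of C57BL/6 mice, received no treatment and were used at passage 1. ATAC-seq, in which a transposase cuts and tags open DNA, was performed on 3 young and 3 middle-aged libraries. The labels give the age as young or middle-aged and nothing that separates the cultures further, so whether a library is 1 mouse or a pool is not given and the p-values measure the spread between libraries. The cells were obtained by plating marrow, and the labels name no sort before the assay.

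Smooth muscle cells and pericytes wrap blood vessels, and in bone marrow they share markers with stromal progenitors. The contractile programme is driven by serum response factor (SRF), which binds the CArG box, and it is activated in muscle by myocardin and in many other cells by the myocardin-related factors that respond to actin. TEAD factors act at the MCAT element, first described in muscle promoters, and AP-1 factors act at many enhancers of stromal and other cells. Pericytes are recognised by surface and signalling proteins more than by contraction.

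The data fell into 3 patterns. Srf, Acta2 and Tagln had a TSS peak in all 6 libraries. Myh11 and Myocd had a TSS peak in 2 and 3 libraries. Cnn1, Des, Mcam, Rgs5 and Cspg4 had none in any library. The share with a TSS peak in all 6 libraries was 30% here and 48.4% over all protein-coding genes, and the share with none was 50% here and 38.5% over all genes. Of the 9 loci with any peak, 6 had a higher mean number of peaks in the middle-aged libraries, 3 an equal one and none a lower one. Genome-wide, 63.7% of genes with any locus peak had a higher mean number in the middle-aged libraries, so a shift in this direction was not particular to these loci.

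The sequences below carry the open sites that the results turn on. They were read from the mm10 genome on the strand of the gene. Capitals mark a CArG box (CCWWWWWWGG, where W is A or T), an MCAT element (CATTCC on either strand) or an AP-1 motif (TGANTCA). Only exact matches were counted. The first 2 lie directly upstream of the start sites of Tagln and Srf, where a CArG box of this exact form was found. The next is the Srf intron site that was called only in middle-aged libraries, and the last 2 are the upstream sites of Acta2 and Mcam, open sites of genes with a weaker or unopened start site.

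Tagln promoter, chr9:45936059-45936263, minus strand: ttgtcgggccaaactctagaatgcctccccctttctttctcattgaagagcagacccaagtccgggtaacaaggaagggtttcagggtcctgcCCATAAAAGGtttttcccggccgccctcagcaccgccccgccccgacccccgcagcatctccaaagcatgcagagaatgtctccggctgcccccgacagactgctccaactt
Srf promoter, chr17:46556176-46556475, minus strand: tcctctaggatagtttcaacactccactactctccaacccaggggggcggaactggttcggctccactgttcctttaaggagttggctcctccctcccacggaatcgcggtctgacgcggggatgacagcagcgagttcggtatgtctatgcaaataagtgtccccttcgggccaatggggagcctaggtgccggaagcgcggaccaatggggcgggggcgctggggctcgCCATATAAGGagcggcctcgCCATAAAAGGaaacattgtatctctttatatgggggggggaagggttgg
Srf intron, chr17:46553219-46553419, minus strand: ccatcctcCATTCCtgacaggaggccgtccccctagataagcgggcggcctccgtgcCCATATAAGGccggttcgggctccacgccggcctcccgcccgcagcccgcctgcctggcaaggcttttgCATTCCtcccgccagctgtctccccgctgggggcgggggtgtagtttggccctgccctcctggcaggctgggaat
Acta2 upstream, chr19:34265723-34265923, minus strand: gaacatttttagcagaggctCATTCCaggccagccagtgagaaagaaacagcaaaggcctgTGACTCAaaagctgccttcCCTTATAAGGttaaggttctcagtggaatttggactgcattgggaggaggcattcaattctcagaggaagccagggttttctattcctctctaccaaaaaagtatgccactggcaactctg
Mcam upstream, chr9:44130019-44130219, plus strand: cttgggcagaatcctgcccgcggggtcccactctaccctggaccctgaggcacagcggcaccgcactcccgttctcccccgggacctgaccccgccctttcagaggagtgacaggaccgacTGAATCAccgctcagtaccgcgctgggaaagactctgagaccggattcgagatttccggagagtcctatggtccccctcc

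None of these 5 stretches overlapped an annotated exon. The Tagln promoter held the CArG box CCATAAAAGG at -112 bp from the start site. Both boxes of the Srf promoter, CCATATAAGG and CCATAAAAGG, lay within 100 bp of its start site. The Srf intron held CCATATAAGG with 2 MCAT elements, and the Acta2 upstream site held CCTTATAAGG with an MCAT element and an AP-1 motif. The Mcam upstream site held an AP-1 motif and no CArG box. At the Acta2 start region itself the summit of its highest ranked peak, that of middle-aged 1, fell in the first GENCODE exon. There the bases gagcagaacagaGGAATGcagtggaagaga (chr19:34255502-34255531, minus strand) hold an MCAT element on the reverse strand. Summits lay at +73, +135 and +172 bp in young and at +74, +66 and +170 bp in middle-aged libraries. The element lies at -146 bp from the RefSeq start of Acta2, so it is upstream of that start.

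Peaks were compared by their rank within their own library, since the lists differ in depth and length. The rank is the percentile of the peak by the −log10 q of the peak caller, from 0 for the weakest to 100 for the strongest peak of that library, and a library without a TSS peak was given 0. The fold is the pileup at the summit over the local background of the same library. Young 3 was the shallowest library, with a genome-wide background of 1.65 extended reads per base against 2.402 to 3.75 in the others, and its list was the shortest, with 27628 peaks against 35953 to 48344. Results that rest on it are given with and without it. All peaks of the 10 loci together numbered 14, 20 and 10 in the young libraries, given in the order 1 to 3 here and throughout, and 19, 20 and 23 in the middle-aged libraries. Per 10000 peaks of the library this was 3.89, 4.55 and 3.62 in young and 4.10, 4.28 and 4.76 in middle-aged libraries. The groups overlapped both in number and per 10000 peaks, since young 2 lay within the middle-aged range each time.

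**Figure D1:**
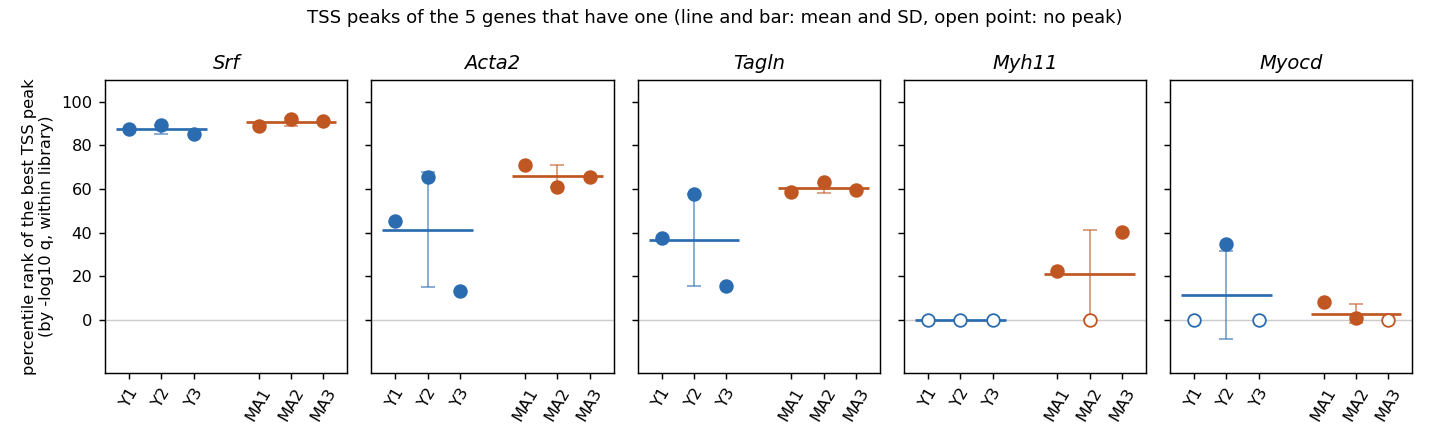
Percentile rank of the best TSS peak (vertical axis, by −log10 q within each library) of Srf, Acta2, Tagln, Myh11 and Myocd in young (Y1 to Y3) and middle-aged (MA1 to MA3) libraries. Lines are group means, bars are SD (n = 3) and open points at 0 are libraries without a TSS peak; Srf stays between 85.4 and 92.2, and Tagln is the only gene with a peak in every library whose ranks do not overlap between the groups.

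Srf (chr17:46548329-46556175, minus strand) encodes the factor that binds the CArG box and had the strongest start site of the 10 genes. The rank of its TSS peak was 87.4, 89.5 and 85.4 in young and 88.7, 92.2 and 91.2 in middle-aged libraries. Middle-aged 1 lay below young 2, so the groups overlapped. The ranks averaged 87.4 ± 2.05 (SD, n = 3) for young and 90.7 ± 1.80 (SD, n = 3) for middle-aged, 3.25 points apart (two-sided p = 0.2 by an exact permutation test over 20 assignments). The smallest p that 3 against 3 libraries allow is 0.1, so no single gene could pass 0.05. Genes with a mean rank between 85 and 95 had a median difference of 3.33 points, close to that of Srf. Without young 3 the Srf difference was 2.22 points.

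The fold at the Srf start site was 8.85, 10.7 and 9.57 in young and 9.87, 10.97 and 10.4 in middle-aged libraries. The log2 fold difference was 0.11 (two-sided p = 0.3, exact permutation test), below the median of 0.24 over the 10569 genes with a TSS peak in all 6 libraries, and from 0.04 (without young 1) to 0.18 (without young 2) with a library left out. After the median log2 fold of each library was subtracted, the difference was -0.16 (two-sided p = 0.1 by the exact permutation test, its smallest value). Srf was thus higher in middle-aged libraries on the deposited scale and lower relative to other open start sites, with neither difference past 0.05.

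Downstream of its start site, Srf had a pair of adjoining intron regions with different patterns. The region at +3194 bp from the start site (chr17:46552812-46553122) was called in every library but young 3, with ranks of 52.4 and 75.9 in young 1 and 2 and of 43.5, 56.0 and 42.4 in middle-aged libraries. The region at +2856 bp (chr17:46553175-46553454), shown above as the Srf intron, was called in the 3 middle-aged libraries and in no young one, with ranks of 43.7, 58.2 and 29.4. Its fold there was 3.92, 4.61 and 3.43. The Srf locus therefore held 2, 2 and 1 peaks in young and 3, 3 and 3 in middle-aged libraries, a difference of 1.33 (two-sided p = 0.1, exact permutation test) that fell to 1.00 without young 3. More peaks in every middle-aged than every young library was found at 6.6% of genes with any peak in their locus. Srf was the only one of the 10 genes with this pattern.

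Myocd (chr11:65176561-65269989, minus strand) encodes myocardin, the cofactor that restricts the SRF programme to cardiac and smooth muscle. Its TSS peak was called in young 2 at rank 34.7, in middle-aged 1 at rank 8.19 and in middle-aged 2 at rank 0.956, and in no other library. The highest value was thus in a young library and the middle-aged values were near the bottom of their lists. With 0 for the libraries without a peak, the mean difference was -8.52 points (two-sided p = 1, exact permutation test), and it turned to 3.05 points without young 2. An intron region at +43056 bp (chr11:65226794-65227197) was called in all 3 middle-aged libraries and no young one, with ranks of 0.211, 8.12 and 18.6. All of these Myocd peaks were weak, and their fold ran from 3.21 to 5.36.

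Acta2 (chr19:34241090-34255590, minus strand) encodes smooth muscle alpha-actin, the actin isoform of contractile and activated stromal cells. The rank of its TSS peak was 45.2, 65.6 and 13.6 in young and 71.2, 61.0 and 65.7 in middle-aged libraries. Young 2 lay within the middle-aged range, and young 3 lay far below every other library. The ranks averaged 41.4 ± 26.2 (SD, n = 3) for young and 65.9 ± 5.07 (SD, n = 3) for middle-aged. The difference of 24.5 points (two-sided p = 0.2, exact permutation test) was smaller than the SD of the young libraries and fell to 10.6 points without young 3. Genes of a mean rank between 40 and 60 had a median difference of 17.5 points with quartiles of 10.4 and 24.0, so Acta2 lay just above the upper quartile of genes of about its own rank.

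The fold at the Acta2 start site was 5.12, 8.05 and 4.81 in young and 7.64, 6.42 and 6.79 in middle-aged libraries. The highest fold was in young 2. The log2 fold difference was 0.25 (two-sided p = 0.4, exact permutation test), close to the median of 0.24 over all open start sites, and it was -0.02 (two-sided p = 0.9, exact permutation test) once the library median was subtracted. Without young 2 the difference was 0.48 and without young 3 it was 0.11. Relative to the median fold of open start sites, the Acta2 difference was therefore near 0. With the summit pileup over the genome-wide background instead, the log2 difference was 0.674 (two-sided p = 0.1, exact permutation test). That value was above the upper quartile of 0.586 over all open start sites.

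Outside the start site, Acta2 had 5 further regions. The highest mean rank where called belonged to an intron region at +11317 bp (chr19:34244026-34244453), called in young 2 at rank 51.6, in middle-aged 2 at rank 46.7 and in middle-aged 3 at rank 38.9. The region at -10233 bp (chr19:34265658-34266118), whose central bases with the CArG box are shown above, was called in 5 of the 6 libraries. Its ranks were 33.0 and 46.8 in young 1 and 2 and, among middle-aged libraries, 44.1, 48.98 and 52.7, and only young 3 had no peak. This pattern held for 2 of the 29 regions (6.90%), the other being the Srf intron region at +3194 bp, and for 8.6% of all regions. The Acta2 locus held 3, 5 and 1 peaks in young and 3, 5 and 5 in middle-aged libraries, a difference of 1.33 (two-sided p = 0.7, exact permutation test) that was 0.33 without young 3.

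Tagln (chr9:45929619-45936058, minus strand) encodes transgelin, an actin-binding protein and an early product of the contractile programme. Its best TSS peak ranked 37.5, 57.6 and 15.6 in young and 58.8, 63.2 and 59.7 in middle-aged libraries. Every middle-aged library was above every young one, although young 2 came close to the lowest middle-aged library. The groups overlapped with equally long lists, where the means were 10.4 points apart, and when ranked by fold, where they were 18.2 points apart (two-sided p = 0.3 for each, exact permutation test). The ranks averaged 36.9 ± 21.0 (SD, n = 3) for young and 60.5 ± 2.30 (SD, n = 3) for middle-aged. They were 23.7 points apart (two-sided p = 0.1 by the exact permutation test, its smallest value) and 13.0 points apart without young 3, and 23.7 is inside the quartiles of 10.4 and 24.0 for genes of like rank. Ranks that were higher in every middle-aged library were found at 30.6% of the genes with a TSS peak in all 6 libraries, and 1 of the 3 such genes here is close to that share.

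Tagln had a pair of peaks at its start site. The promoter peak (chr9:45935785-45936263), which covers the promoter shown above, ranked 37.5, 57.6 and 14.4 in young and 58.8, 63.2 and 59.7 in middle-aged libraries. A weaker peak at -1052 bp (chr9:45936993-45937220) ranked 27.3, 13.5 and 15.6 in young and 30.1, 41.5 and 33.9 in middle-aged libraries. In young 3 this upstream peak was the higher of the pair. By rank the groups did not overlap at either peak, and the differences of 24.1 and 16.3 points had the smallest p possible (two-sided p = 0.1, exact permutation test). Without young 3 they were 13.0 and 14.7 points. The share of all regions with such ranks was not counted. By fold the groups overlapped at both peaks. The fold of the upstream peak was 3.85, 3.77 and 4.67 in young and 4.04, 4.53 and 4.22 in middle-aged libraries, highest in young 3.

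The fold at the best TSS peak of Tagln was 4.22, 5.96 and 4.67 in young and 5.64, 6.17 and 5.62 in middle-aged libraries. The young 3 value is that of the upstream peak, and the promoter peak of young 3 had a fold of 4.55. Young 2 was above middle-aged 1 and 3, so on this measure the groups overlapped. The log2 fold difference was 0.24 (two-sided p = 0.3, exact permutation test) and -0.02 (two-sided p = 0.9, exact permutation test) relative to the median of each library. Leaving out a library took the first value from 0.14 (without young 1) to 0.39 (without young 2). A fold that was higher in every middle-aged library was found at 38.4% of the genes with a TSS peak in all 6 libraries and at none of Srf, Acta2 and Tagln. The other strong region in the Tagln locus, at -19205 bp, was the start site of the neighbouring gene Sidt2.

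**Figure D2:**
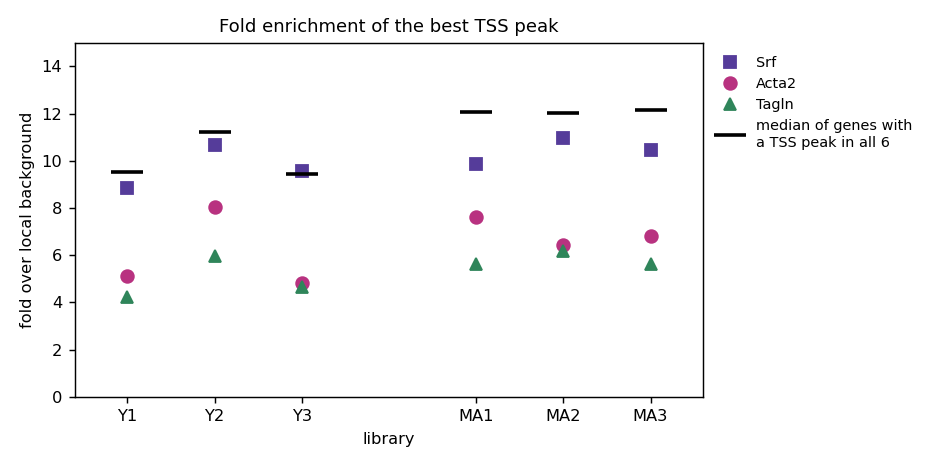
Fold over the local background at the best TSS peak (vertical axis) of Srf, Acta2 and Tagln in each library, with a black dash for the median of the 10569 genes with a TSS peak in all 6 libraries. The median is 9.43 to 11.2 in young and 12.03 to 12.13 in middle-aged libraries; Acta2 and Tagln lie below it in every library, and Srf lies below it in every library except young 3.

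Myh11 (chr16:14194535-14291372, minus strand) encodes smooth muscle myosin heavy chain, a marker of differentiated smooth muscle. No young library had a TSS peak, and middle-aged 1 and 3 had a TSS peak at ranks 22.4 and 40.5. Middle-aged 2 had none, so both groups contained libraries without a peak. The mean difference was 21.0 points (two-sided p = 0.4, exact permutation test). It was 11.2 points without middle-aged 3, 31.5 points without middle-aged 2 and 0 with equally long lists, in which neither peak was kept. Among all protein-coding genes, 2.78% had a TSS peak in at least 2 more middle-aged than young libraries, and Myh11 was the only one of the 10 genes that did. Its other regions were weak, and the most widely called of them was an intron of the neighbouring gene Fopnl at -16162 bp, with ranks of 24.8 to 43.6 in all 6 libraries. An intron region of Myh11 at +53868 bp was called at rank 31.7 in young 2 and at ranks 33.5 and 29.7 in middle-aged 1 and 2.

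Cnn1 (chr9:22099216-22109630, plus strand) encodes calponin, an actin-binding regulator of contraction. No library had a peak within 1000 bp of its 4 start sites or in its gene body. The start site of the neighbouring gene Ecsit, at -13748 bp, was open in every library, with ranks of 87.5 to 94.1.

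Des (chr1:75360329-75368579, plus strand) encodes desmin, the intermediate filament of muscle and many pericytes. No peak was called at its start site, in its gene body or upstream in any of the 6 libraries. It was the only one of the 10 genes with an entirely empty locus.

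**Figure D3:**
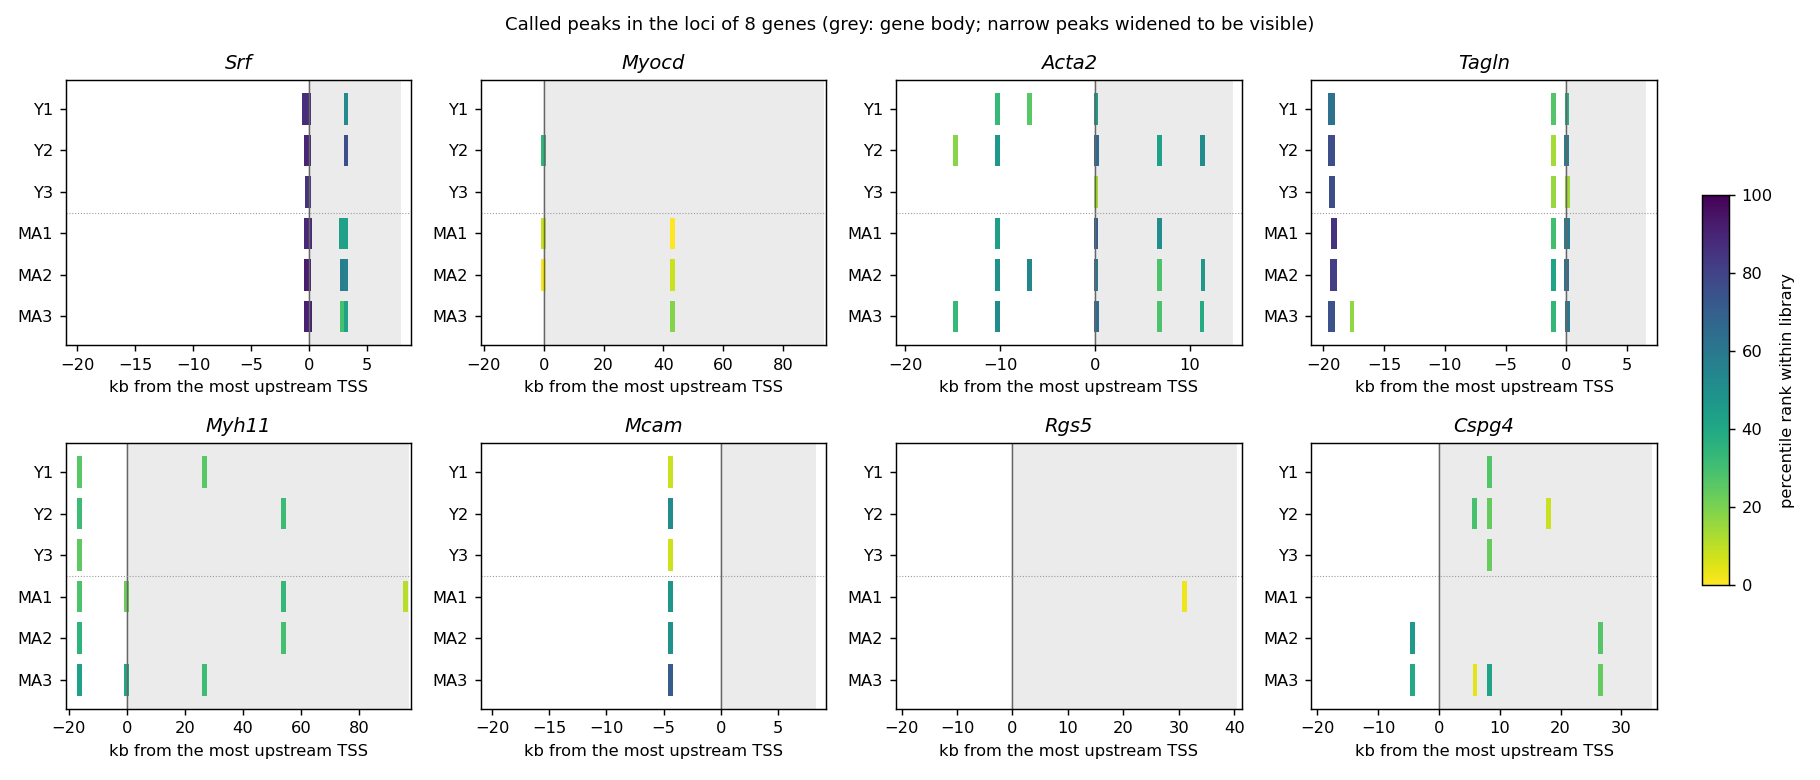
Called peaks along the loci of 8 of the genes, 1 row per library, with distance from the most upstream TSS along the gene on the horizontal axis (kb, upstream to the left) and the gene body in grey. Colour gives the percentile rank within the library; narrow peaks are widened to be visible. Srf, Acta2 and Tagln show peaks at 0 in every row, Mcam shows its peaks upstream of an empty start site, and young 3 has the fewest peaks.

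Mcam (chr9:44134469-44142727, plus strand) encodes CD146, an adhesion molecule of pericytes, endothelial cells and marrow stromal progenitors. No library had a TSS peak. A region at -4443 bp (chr9:44129963-44130419), outside protein-coding genes and inside an annotated antisense RNA gene, was called in all 6 libraries. It ranked 8.10, 52.1 and 7.68 in young and 47.6, 49.95 and 71.1 in middle-aged libraries. Young 2 lay within the middle-aged range and the other 2 young libraries lay near the bottom of theirs. The difference of 33.6 points was the largest among the regions called in all 6 libraries, but the groups overlapped (two-sided p = 0.3, exact permutation test), and it was 26.1 points without young 3.

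Rgs5 (chr1:169655501-169695813, plus strand) encodes a regulator of G protein signalling that is widely used to mark pericytes. It had no TSS peak, and its locus held a single peak, in an intron at +31007 bp in middle-aged 1, at rank 2.63 of that list. The other 5 libraries had no peak at Rgs5.

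Cspg4 (chr9:56865033-56899870, plus strand) encodes NG2, a proteoglycan on the surface of pericytes and glial progenitors. It had no TSS peak in any library. Its locus held 1, 3 and 1 peaks in young and 0, 2 and 4 in middle-aged libraries, a difference of 0.33 (two-sided p = 1, exact permutation test) that was 0 without young 3. Its intron region at +8274 bp (chr9:56873196-56873455) was 1 of 2 regions called in fewer middle-aged than young libraries. Such regions made up 6.90% of the 29 regions and 9.02% of all regions. The intron region had peaks in all 3 young libraries at ranks 27.3, 23.7 and 23.2 and in middle-aged 3 alone at rank 42.0. The strongest Cspg4 region, at -4385 bp in an intron of the neighbouring gene Odf3l1, was called in middle-aged 2 and 3 at ranks 46.4 and 39.6.

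Across the 29 regions, 9 were called in all 6 libraries, or 31.0%, against 35.1% of all regions. Another 2 were called in the 3 middle-aged libraries and in no young one, the introns of Srf and Myocd named above, and this pattern was found in 2.21% of all regions. None was called in the 3 young libraries only, against 0.036% of all regions. A single library held 4 of the regions, or 13.8%, against 23% of all regions. More middle-aged than young libraries called 14 of the 29 regions, or 48.3%, and the share over all regions was 47.1%. The regions of these loci were therefore called more often in middle-aged libraries about as frequently as regions elsewhere.

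The sites of these loci were described by motif within 100 bp of their summits, on both strands. A CArG box, counted only as an exact match, was present in 4 of the 29 regions, or 13.8%, against 1.28% of all 63840 regions. These 4 were the promoters of Srf and Tagln, the Srf intron and the Acta2 upstream site, and the Tagln promoter window also held CCAAATATGG just inside the gene at +11 bp. An AP-1 motif was present in 9 regions, or 31.0%, against 15.9% of all regions, among them the upstream sites of Acta2 and Mcam. MCAT elements, GC boxes (GGGCGG) and the RBPJ motif of Notch signalling (TGGGAA) were present in 13.8%, 24.1% and 20.7% of the 29 regions, against 12.8%, 19.8% and 19.02% of all regions. CArG boxes are long known at contractile genes, several regions belong to the same gene, and a match describes letters and not binding.

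Base composition differed between open and unopened start sites genome-wide. Among genes with a RefSeq promoter sequence (250 bases before the start), 79.6% had a TSS peak in all 6 libraries where the observed over expected CpG ratio was at least 0.6, against 48.7% where it was between 0.4 and 0.6 and 13.0% where it was lower. Srf had a ratio of 0.788 and its start site was open. Cnn1, Rgs5 and Des had ratios of 0.141, 0.226 and 0.355 and no TSS peak, and Cspg4 had 0.527 and none. Mcam went against the trend, with a ratio of 0.739 and no TSS peak. Acta2 had a ratio of 0.231 and a TSS peak in every library, but its RefSeq start lies inside the first GENCODE exon, so these bases are mostly downstream of the start site used here. RefSeq promoters were matched for 7 of the 10 genes.

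Most genes of the wider contractile programme had a TSS peak in every library. For 18 other smooth muscle and SRF-dependent genes, TSS peaks numbered 15, 16 and 13 in the young and 17, 16 and 18 in the middle-aged libraries, and 13 genes (72.2%) had one in all 6, against 48.4% of all protein-coding genes. The highest ranks belonged to Zyx (zyxin, 97.4 to 99.4), Mrtfa (a myocardin-related cofactor, 85.5 to 94.9), Actn1 (alpha-actinin, 89.7 to 92.7) and Vcl (vinculin, 82.8 to 94.99), all of which serve the actin cytoskeleton of most cells. Ranks were higher in every middle-aged library for 6 of the 13 (46.2%), against the genome-wide 30.6%. Lmod1, a leiomodin of smooth muscle, had a TSS peak in the 3 middle-aged libraries and in no young one, at ranks of 42.6, 48.9 and 20.6. Actg2, the enteric smooth muscle actin, had one in middle-aged 1 and 3 only.

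Few pericyte genes beyond Mcam, Rgs5 and Cspg4 had a TSS peak in every library. For 14 such genes, TSS peaks numbered 5, 6 and 2 in the young and 5, 7 and 6 in the middle-aged libraries, while 7 genes, among them Notch3, Abcc9 and Higd1b, had none in any library, or 50% against 38.5% of all protein-coding genes. Foxc1, a transcription factor also of marrow stromal progenitors, was the only one with a TSS peak in all 6, at ranks of 42.8 to 82.3, where 48.4% of all genes had one. Pdgfrb, the receptor by which pericytes are recruited, had a TSS peak in every library but young 3, at ranks of 24.5 and 42.0 in young and of 40.3, 58.2 and 37.6 in middle-aged libraries.

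The labelled cell type was checked against markers. For 10 genes of marrow stromal progenitors, TSS peaks numbered 7, 5 and 3 in the young and 5, 6 and 7 in the middle-aged libraries. Kitl, Foxc1 and Ebf3 had one in all 6, and Lepr, Prrx1 and Adipoq had none in any. Of 10 genes of blood cells and macrophages, 9 or 10 had a TSS peak in each library and 9 had one in all 6, with Tyrobp at ranks of 66.8 to 86.5 and Ptprc, which encodes CD45, at 52.7 to 67.5. For 10 endothelial genes, TSS peaks numbered 3 to 5 per young and 5 to 7 per middle-aged library. Cdh5, which encodes VE-cadherin, had one in all 6 at ranks of 85.4 to 89.2, about as high as Srf, and Flt1 had one in all 6 at 8.18 to 52.8, while Tie1, Sox17 and Emcn had none. Of 10 skeletal muscle genes only Mef2c and Tnnt3 had a TSS peak, and Myod1, Myf5, Myog and Pax7 had none. None of 10 genes of unrelated tissues had a TSS peak in any library.

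The mean rank over the blood and macrophage genes, with 0 where there was no peak, was 45.3 to 53.1 in young and 58.7 to 59.4 in middle-aged libraries. For the 10 contractile and pericyte genes it was 11.4 to 24.7 and 21.7 to 25.7. The part of other cell types in the peaks of these 10 genes was not tested. In bulk chromatin, a site open in a few cells and a site slightly open in all cells cannot be told apart.

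**Figure D4:**
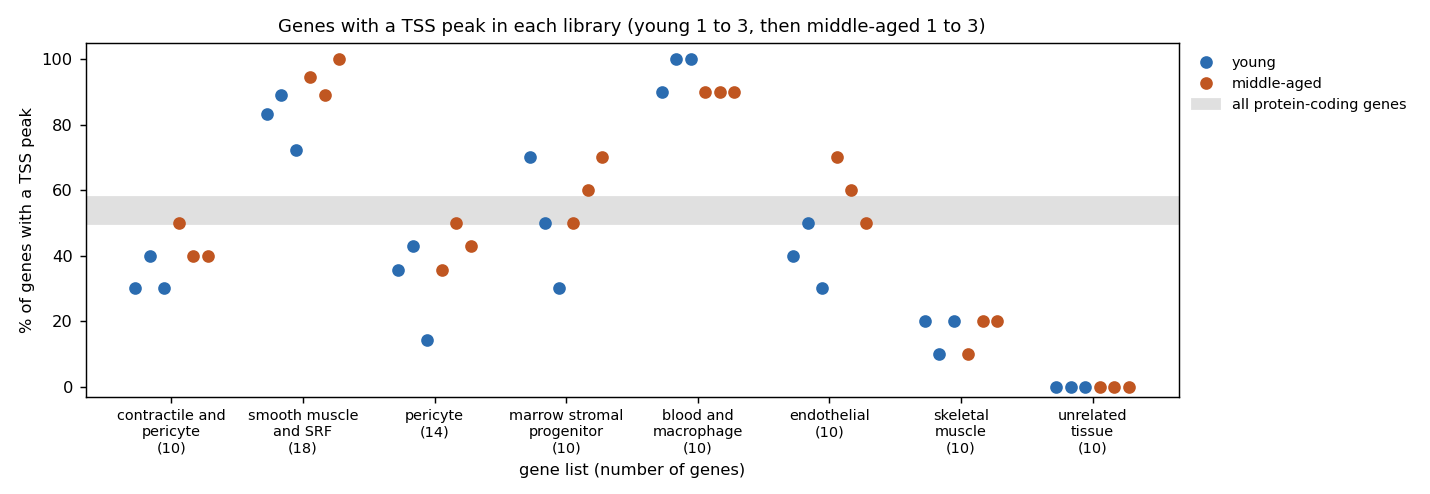
Share of the genes of each list with a TSS peak (vertical axis, %) in each library, in the order young 1 to 3 (blue) and middle-aged 1 to 3 (orange), with the number of genes below each name and a grey band for all protein-coding genes (49.5% to 58.0%). The smooth muscle and SRF list and the blood and macrophage list lie above the band in every library, the contractile and pericyte genes lie at 30% to 50%, and the unrelated tissues lie at 0.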

How the data were processed

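ATAC-seq was analysed from the peak lists of 3 young and 3 middle-aged libraries, grouped by sample title. The authors generated FASTQ files with bcl2fastq, aligned reads to mm10 with Bowtie2, removed duplicates with Sambamba and called peaks per library with MACS. DiffBind, the differential test of the study, needs reads and was not repeated. In the deposited files, the score is 10 times the −log10 q, cut to a whole number. The fold deposited by the authors is the ratio of summit pileup to local background, each with 1 added, without a control library. A Poisson p-value and a q-value, both as −log10, were also deposited and hold within their own list. Whether reads were shifted for the transposase is not stated in the sources used here.

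Depth is not given in reads. Fold and −log10 p were solved together for the summit pileup and the local background, and the pileup came out whole (within 0.05) for 100% of peaks in every list. The lowest background of a list, the extended reads per base genome-wide, served as relative depth. Start sites were those of 54361 protein-coding transcripts in GENCODE vM21, on the same build. Peaks sharing at least 1 bp were joined into regions. Ranks, folds and peak numbers per gene were compared by exact permutation (20 ways to split 6 libraries, two-sided). Fold differences are on the log2 scale without a pseudocount. Motifs were searched on both strands in 201 bp around summits. Sequences are from GRCm38 (mm10) and RefSeq promoters of that build.

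The 10 genes, the other lists and the tests were chosen with earlier results of these data known, and the rank bands used for comparison after the ranks were seen. All 10 genes are named, with their TSS region, up to 2 other regions of the highest mean rank and regions called in all libraries of 1 age group and none of the other, and from each other list up to 4 genes by mean rank; further genes of the lists were named after their values were seen. A region of the Cnn1 locus is not reported here. No list held repeated intervals, and 0 peaks were identical between any 2 lists. As alternatives, a −log10 q of 5 or more was required, or equally long lists, thinning to the lowest background, other windows, joins and rankings were used, and each library was left out. Scripts were tested on simulated data. Python 3.11.15, numpy 2.4.6, scipy 1.17.1, pandas 2.3.3 and matplotlib 3.10.9 were used.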

Additional observations from a re-analysis of the deposited data

How the results depend on the processing

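Of 290 values recomputed under an alternative, 243 kept their direction or size, 40 moved and 7 changed sign. With a −log10 q of at least 5, the middle-aged minus young difference in the number of the 10 genes with a TSS peak was 0.333 against 1, and 1 region was specific to middle-aged libraries against 2; thinning to the lowest background also left 1. With equally long lists the differences in genes with a TSS peak and in peaks over all 10 loci were both 0 (against 1 and 6), no gene had a higher rank in every middle-aged library, 18 regions remained against 29, none was specific to middle-aged and 2 were in a single library; the locus peak differences of Myh11 and Cspg4 became -0.667 and -0.333, and the rank differences of Acta2, Tagln and Srf fell to 12.7, 10.4 and 0.02 points. This setting cuts the weakest peaks, most of them from the middle-aged lists. Leaving out each library in turn, the difference in peaks over all loci was 3.67 (without young 3) to 8.67, that in genes with a TSS peak 0.667 to 1.33, genes with higher ranks in every middle-aged library 1 to 3 (3 without young 2), regions 27 to 29, regions in all libraries 9 to 11, regions specific to middle-aged 2 to 4 (4 without middle-aged 1), specific to young 0 to 1 (1 without middle-aged 3) and in a single library 3 to 9 (9 without middle-aged 3). The Cspg4 locus difference was -0.667 without middle-aged 3, and the Myocd rank difference ran from -14.3 (without young 1 or 3) to 3.05 (without young 2). Relative to the median fold of each library the log2 fold differences of Acta2, Tagln and Srf were -0.0174, -0.0223 and -0.159; over the genome-wide background they were 0.674, 0.542 and 0.516 (exact permutation test, two-sided p = 0.1 each) beside a median of 0.480 over all open start sites. Where not said, the cause of a change was not tested.

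Replicate numbers are shared by the age groups, but same-numbered libraries did not deviate together at the regions compared (correlations of 0.0028, -0.0031 and -0.041 over 22403 regions). These correlations cannot show whether same-numbered libraries were prepared together. With the replicate block the rank differences of Srf, Acta2 and Tagln were unchanged at 3.25, 24.5 and 23.7 points, and the smallest p became 0.25 (exact sign permutation). Depth limits these results: a weak peak missing from young 3 is not shown to be closed. Depth is not the only difference, since young 1 had the highest background, 3.75 extended reads per base, and the next shortest list, 35953 peaks. Its median fold at open start sites was 9.53, against 11.2 in young 2, 9.43 in young 3 and 12.03 to 12.13 in middle-aged libraries. The cause of this was not tested.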
